A study of Mus musculus with 9 samples.

Results

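The comparison set the Dppa4 binding sites of mouse fibroblasts made to carry Dppa4 beside those of mouse embryonic stem cells, where the gene is naturally on. Chromatin immunoprecipitation followed by sequencing (ChIP-seq) with a DPPA4 antibody was done in duplicate in each line, and each library has its own deposited list of peaks, that is, stretches where sequenced fragments piled up. The 2 3T3 lists and the 2 E14 lists were taken whole, and no P19 list entered. They hold 138138 of the 229345 peaks of the series, with 61693 and 43443 in E14 and 15462 and 17540 in 3T3. The 3T3 cells are a fibroblast line that ectopically expressed Dppa4, grown in DMEM with serum. The embryonic stem cells are of the E14 line and were kept on gelatin, free of feeder cells, in 2i medium with 2% serum. The labels used here do not name the vector or promoter that drove Dppa4 in 3T3, or say whether the cells were 1 clone, and they do not say whether duplicate libraries came from separate cultures. No ChIP from 3T3 cells lacking Dppa4 was analysed here. The lists hold no expression values, so neither the identity of the lines nor the amount of DPPA4 could be checked.

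DPPA4 is a small nuclear protein with a SAP domain, a fold that binds DNA, and it acts together with its close relative DPPA2. Both genes are on in pluripotent cells, the early embryo and the germ line, and fibroblasts normally keep them off. In embryonic stem cells the pair is known for sitting at promoters of developmental genes that carry activating and repressing histone marks at once, and for keeping such genes open to later activation.

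A peak was described by its rank within its own list, since the files give a score without saying what it measures. The score percentile is 100 for the strongest peak of a list, and ties share their mean rank. A region is the merged stretch of overlapping peaks (at least 1 bp) from both libraries of a line. Read depth is unknown. A weak peak in fewer cells and a weak peak in all cells cannot be told apart.

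Most 3T3 regions were E14 regions, while most E14 regions were missing from 3T3. Of the 11178 3T3 regions, 8672 or 77.6% (Wilson 95% interval 76.8 to 78.3, counting error only) overlapped an E14 region, and 8807 of the 37337 E14 regions or 23.6% (23.2 to 24.0) overlapped a 3T3 region. List length bears on both shares: with 15462 peaks in every list they were 36.7% and 30.9%. Regions of both lines merged into 8541 stretches with a median width of 1250 bp. A further 24305 E14 regions had no peak in either 3T3 list, with a median width of 765 bp. The 4225 E14 regions in which 3T3 peaks were present but did not reproduce ranked as high in E14 as the shared ones, with median percentiles of 81.4 and 78.7 in the 2 E14 libraries against 77.1 and 71.2. Their 3T3 peaks ranked low, at 20.2 and 24.7. On average such a region held 0.20 peaks of 3T3 replicate 1 and 0.83 of 3T3 replicate 2. Most of these peaks were thus from replicate 2, and the 20.2 rests on a small part of the regions. On the 3T3 side, 1158 regions had no E14 peak at all, and their median 3T3 percentiles were 37.4 and 44.9 against 67.4 and 73.3 for the shared regions.

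In each of the 4 libraries, the share found in the other line was lower among peaks seen in only 1 library of their own line. Of the 3T3 replicate 1 peaks, 83.7% (83.1 to 84.3) had a peak in at least 1 E14 library, and of the 3T3 replicate 2 peaks 83.0% (82.4 to 83.5). Among 3T3 peaks also found in the other 3T3 library the shares were 88.4% and 89.6%, and among those not found there 53.1% and 71.1%. Of the E14 replicate 1 peaks 25.5% (25.1 to 25.8) and of the E14 replicate 2 peaks 33.6% (33.2 to 34.1) had a peak in at least 1 3T3 library. For E14 peaks seen in both E14 libraries these shares were 34.8% and 35.0%, and for the others 6.81% and 25%. The lowest share thus belonged to the 20553 peaks of E14 replicate 1 without a partner in replicate 2, and the 5847 such peaks of E14 replicate 2 had a higher one.

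The strongest sites of the 2 lines were nearly disjoint. Among the 500 best-scoring peaks of each list, E14 replicate 1 shared 5.0% with 3T3 replicate 1 and 4.80% with 3T3 replicate 2, and E14 replicate 2 shared 3.0% and 2.6% (mean of both directions). The mean was 3.85 ± 1.23% (SD over 4 library pairs, which reuse the same 4 libraries). At the same length the E14 replicates shared 75.5% and the 3T3 replicates 73.9%. The mean overlap between lines was larger for every longer list, at 5.28 ± 3.28% at 1000 peaks, 8.92 ± 3.79% at 2000, 17 ± 1.74% at 5000, 29.1 ± 1.5% at 10000 and 40.1 ± 3.47% at 15462, the length of the shortest list. From 500 to 1000 peaks only the pairs with E14 replicate 1 grew, while those with E14 replicate 2 went to 2.8% and 2.1%. Overlap within a line stayed between 73.5% and 82.2% over these lengths. In no case did a pair of libraries from different lines reach a pair from the same line. These pairs were not tested. With 2 libraries a line, the smallest p that an exact two-sided permutation test allows is 0.33, and the spread between duplicates may be technical.

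**Figure D1:**
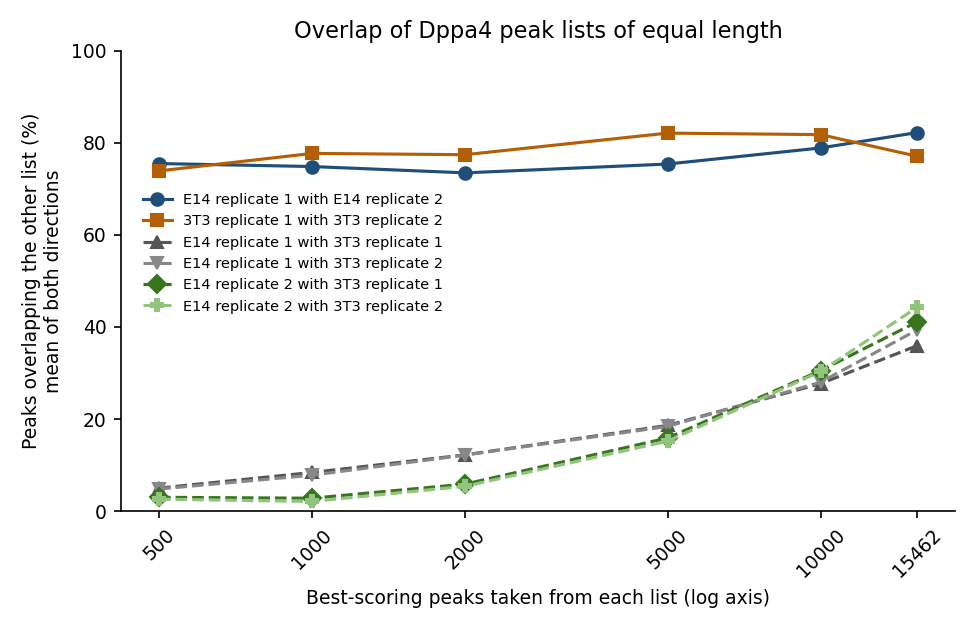
Overlap between peak lists cut to the same number of best-scoring peaks (horizontal, log axis), as the percentage of peaks that overlap the other list, mean of both directions (vertical). Each line is 1 pair of libraries. The pairs from the same cell line stay between 73.5% and 82.2%, and the 4 pairs of E14 with 3T3 rise from a mean of 3.85% at 500 peaks to 40.1% at 15462.

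The best 3T3 peaks were nonetheless almost always E14 peaks of upper rank. Of the 500 best of 3T3 replicate 1, 496 (99.2%, interval 98.0 to 99.7) had a peak in E14 replicate 1 and 494 (98.8%) in E14 replicate 2, against 83.7% of the whole list with a peak in either. Of the 500 best of 3T3 replicate 2, 495 (99%) and 498 (99.6%) did, against 83.0%. Their E14 partners had median percentiles of 91.3 and 87.0 for replicate 1 and 91.1 and 87.2 for replicate 2. Counted from the top of the E14 lists, these medians are places 5379, 5640, 5517 and 5559, which is far below the first 500. In E14 replicate 1, 36.2% and 35.0% of the 500 best peaks of the 3T3 libraries lay in the top 5%, and in E14 replicate 2, 14.4% and 14.8%.

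The best E14 peaks were often found in 3T3 as well, but as weak peaks. Of the 500 best of E14 replicate 1, 240 (48.0%, 43.7 to 52.4) had a peak in 3T3 replicate 1 and 394 (78.8%, 75 to 82.2) in 3T3 replicate 2. For E14 replicate 2 the counts were 234 (46.8%) and 421 (84.2%). The whole lists gave 25.5% and 33.6% with a peak in either 3T3 library. Where a 3T3 peak was present, its median percentile was 43.1 and 43.7 for the peaks of E14 replicate 1, and 35.9 and 41.4 for those of E14 replicate 2. These are places 8792, 9877, 9918 and 10275 from the top of the 3T3 lists. With every list limited to its 15462 best peaks, the 500 best 3T3 peaks still had E14 partners in 83.4% to 91.2% of cases, with median percentiles from 66.1 to 72.9. The 500 best E14 peaks then had 3T3 partners in 46.8% to 76.0% of cases, with median percentiles from 35.9 to 43.1. The asymmetry thus had the same direction with lists of equal length.

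The rank in 3T3 did not follow the rank in E14 steadily. In bins of 5% of an E14 list, the median percentile of the 3T3 partner was between 44.3 and 62.7 for the weakest E14 peaks and between 71.0 and 76.0 in the bin from 80 to 85%, with small ups and downs between. It was lower in the highest bin, at 57.5 (3T3 replicate 1) and 43.4 (3T3 replicate 2) for E14 replicate 1, and at 37.9 and 35.2 for E14 replicate 2. The difference between these bins was -13.8, -27.6, -38.2 and -39.9 percentile points in the 4 library pairs. Over the same step the share of E14 peaks with a 3T3 peak rose from 37.8% to 62.8% and from 47.2% to 66.9% in 3T3 replicate 2. In 3T3 replicate 1 it rose from 30.7% to 42.1% for the peaks of E14 replicate 1, and was 39.6% and 38.7% for those of E14 replicate 2. The highest E14 bin thus combined more 3T3 peaks, mainly in 3T3 replicate 2, with weaker ones in both libraries. This pattern was noticed in the data and has no test. Looked up in the opposite direction, the E14 percentile was highest in the top 3T3 bin, between 84.6 and 89.6. It did not climb steadily to there: for 3T3 replicate 2 it was 79.1 (E14 replicate 1) and 75.7 (E14 replicate 2) in the lowest bin and 65.0 and 55.7 in the bin from 55 to 60%.

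**Figure D2:**
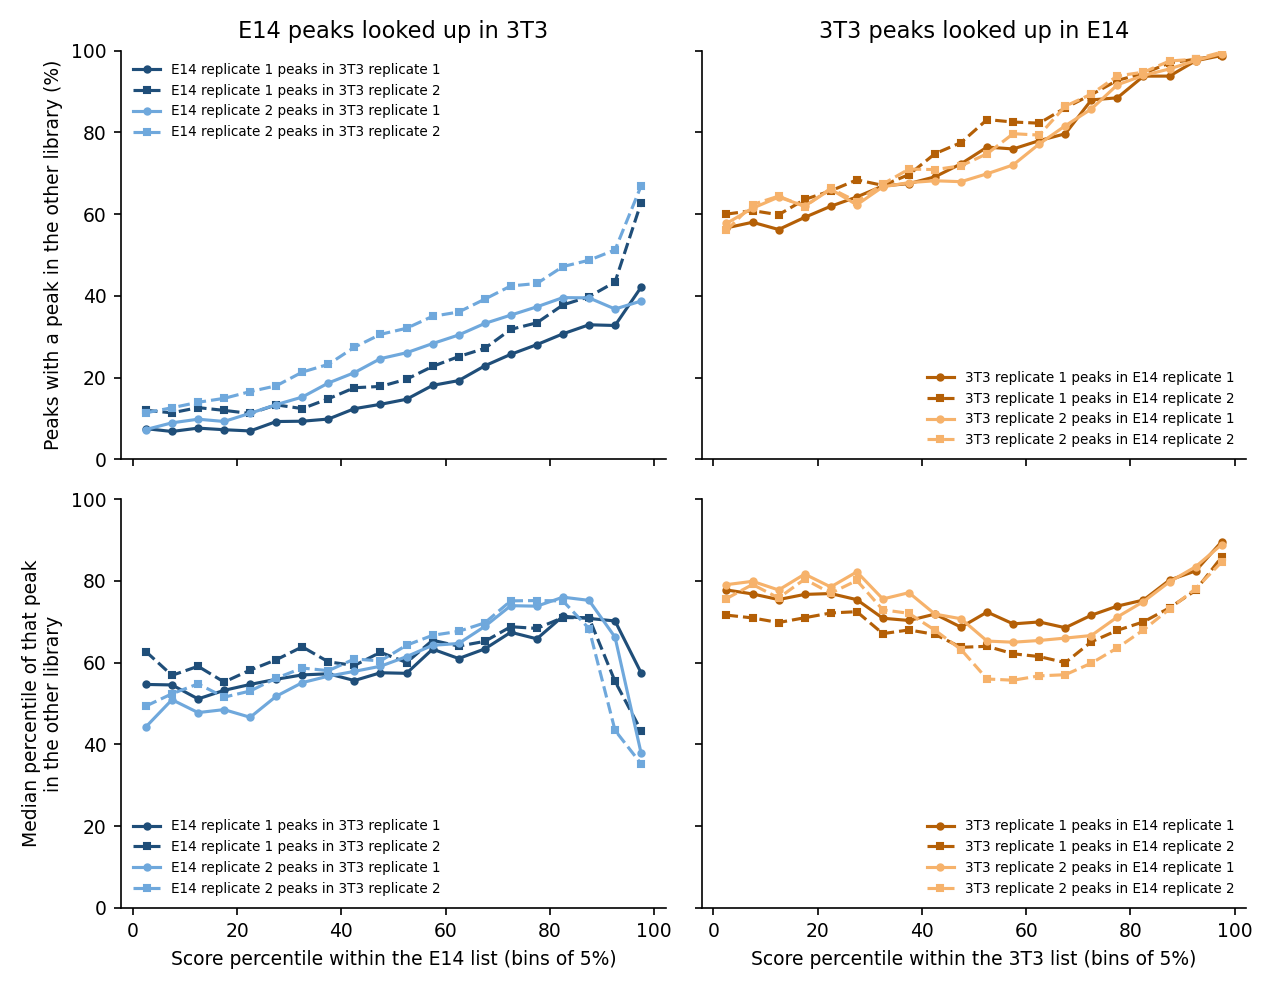
Top, the percentage of peaks with a peak in the other library; bottom, the median score percentile of that peak; both against the score percentile in the peak's own list in bins of 5%. Left, E14 peaks looked up in 3T3; right, 3T3 peaks looked up in E14; each line is 1 pair of libraries. At the right edge of the lower left panel the 4 lines end between 35.2 and 57.5.

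Among the best-scoring 5% of the E14 lists, sites that were strong in 3T3 were the minority. Of the 3085 such peaks of E14 replicate 1, 1006 (32.6%) had no 3T3 peak, 1201 (38.9%) had a 3T3 peak no higher than percentile 50 in either 3T3 list, 473 (15.3%) reached a percentile over 50 and up to 90, and 405 (13.1%) exceeded 90. For the 2173 peaks of E14 replicate 2 the numbers were 595 (27.4%), 1142 (52.6%), 307 (14.1%) and 129 (5.94%). In the opposite direction, 416 of the 774 best 3T3 replicate 1 peaks (53.7%) and 441 of the 877 best 3T3 replicate 2 peaks (50.3%) exceeded percentile 90 in E14, and 2 and 0 had no E14 peak. These cuts compare lists of different length, which favours the 3T3 side. In lists of 15462 peaks each, a step added after these values were seen, the best 5% were 774 peaks per library. Of these, 77 (9.95%) and 34 (4.39%) of the E14 libraries and 141 (18.2%) and 133 (17.2%) of the 3T3 libraries exceeded percentile 90 in the other line. No peak in the other line was found for 23.1% and 20.7% of the E14 peaks and for 8.27% and 8.01% of the 3T3 peaks. The gap in the share over percentile 90 was thus much smaller at equal length, and its direction was the same. Equal length also moves the cuts themselves, with 774 E14 peaks in place of 3085 and 2173, and these effects were not separated. Regions of the lists as deposited carry the same limit. Of the 1885 E14 regions over percentile 95 in both E14 libraries, 636 had a peak in both 3T3 libraries, 763 in 1 of them and 486 in none. In 661 of the 763 that single peak was in replicate 2. Of the 625 3T3 regions over percentile 95 in both 3T3 libraries, 618 had a peak in both E14 libraries and the other 7 in 1. The regions over 95 in all 4 libraries numbered 64.

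**Figure D3:**
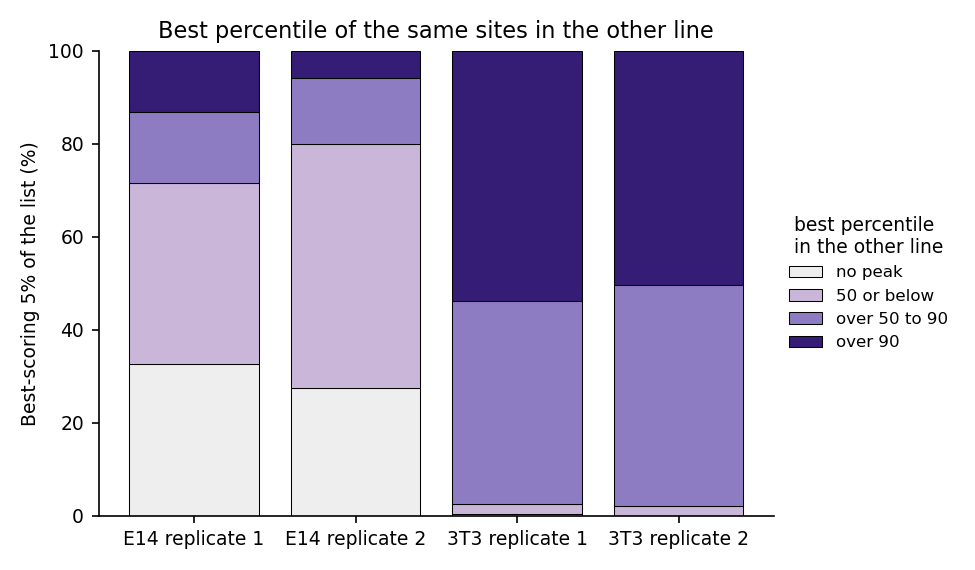
The best-scoring 5% of each list (1 bar per library), divided by the best percentile that the same site reached in either library of the other line. The share over percentile 90 is 13.1% and 5.94% in the E14 bars and 53.7% and 50.3% in the 3T3 bars. The lists differ in length, and at equal length these shares were 9.95% and 4.39%, and 18.2% and 17.2%.

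Among the 4 groups of strong E14 peaks, those with no 3T3 peak and those over percentile 90 in 3T3 differed in width, neighbourhood and chromosome. These groups were formed after the values were seen, and the rank in 3T3 that divides them is no test. Median widths were 1085 and 1205 bp in the 2 E14 libraries for those with no 3T3 peak, and 1211 and 1879 bp for those over percentile 90 in 3T3. Another peak of the same E14 list lay within 10 kb of 29.9% and 22.4% of the former and of 51.9% and 58.9% of the latter. In the groups between, widths were 1102 and 1341 bp at 50 or below, and 1254 and 1705 bp over 50 up to 90. Their shares with such a neighbour were 28.0% and 24.2%, and 54.8% and 44.3%. The 4 groups thus formed a steady series only in E14 replicate 2. The X chromosome held 7.55% and 8.57% of the peaks with no 3T3 peak, 9.08% and 9.02% of those at 50 or below, 2.54% and 3.58% of those over 50 up to 90, and 0% in both libraries of those over 90. It held 2.61% and 2.99% of the whole E14 lists and 1.42% and 2.33% of the 3T3 lists. X-linked peaks were thus few in 3T3, and they ranked low there (median percentiles 32.2 and 31.8), which bears on the 0%.

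The rank order within shared regions was kept between replicates and weak between lines. Over the 8541 regions of both lines, each scored by its best peak in a library, Spearman's rank correlation was 0.81 between the E14 libraries and 0.84 between the 3T3 libraries. It was 0.15 and 0.15 for E14 replicate 1 with the 3T3 libraries, and 0.13 and 0.14 for E14 replicate 2. Without the regions at a score of 3100 or above, where many E14 peaks are tied, the values between lines were 0.15 to 0.17 over 8418 regions. These are correlations across regions, which share libraries and are not replicates. The mean between lines, 0.14, was -0.02 without 3T3 replicate 1, when every peak of 3T3 replicate 2 counted as a 3T3 region. In the shared regions, 423 had a mean E14 percentile over 95 and a mean 3T3 percentile of at most 50, against 125 with both means over 95. The converse case, over 95 in 3T3 and at most 50 in E14, had 13 regions. These percentiles come from lists of different length, which bears on both counts. In lists of equal length, the 774 best peaks of each library were looked up in the other line. Of these, 50.6% and 59.2% in the E14 libraries had a 3T3 peak at percentile 50 or below. For the 3T3 libraries, 22.1% and 23.3% had an E14 peak at 50 or below. The direction was the same with a smaller contrast, though these are single peaks and not regions.

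The 5 highest regions of both lines, merged over the 4 lists, spanned 3783 to 12696 bp, against a median of 1250 bp over all shared regions. These 5 were chosen by the lowest percentile over the 4 libraries, each scored by its best peak. No gene was assigned to any region, since no mm9 annotation was used here. All positions are mm9, counted from 1. The first was chr1:173000129-173004961, 4833 bp long, scoring 3100 and 2894.4 in the E14 libraries and 1400.0 and 2891.4 in the 3T3 libraries. It was a single peak in 3T3 replicate 2 and 4 separate peaks in 3T3 replicate 1. Close to it on chromosome 1 lay the second, from 173007727 to 173012420, with 3198.3 and 2687.2 in E14 and 1623.4 and 2320.9 in 3T3, and the fifth, from 172993496 to 172997278, with 3042.2 and 2377.7 in E14 and 1467.1 and 2986.0 in 3T3. Among the 5 highest regions, these 3 thus fell within 1 stretch of chromosome 1. The third, chr12:114013609-114023301, spanned 9693 bp and scored 3100 and 3100 in E14 and 1267.8 and 3100 in 3T3. The fourth, chr15:76001850-76014545, spanned 12696 bp, held 4 peaks of 3T3 replicate 1 and 7 of 3T3 replicate 2, and scored 3100 and 3100 in E14 and 1323.4 and 2172.3 in 3T3. Their percentiles were 99.34 or more in each library.

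Regions at a score of 3100 or above in both E14 libraries could be without any 3T3 peak. Many E14 peaks are tied at 3100, while the highest scores in the E14 libraries were 3233.1 and 3228.3. The first of these regions was chrX:86137416-86138702, 1287 bp long, with scores of 3100 and 3184.0 in E14. The next 4 scored 3100 in both E14 libraries, so that width set their order. They were chr17:7136105-7142803 of 6699 bp, chr3:17633540-17635534 of 1995 bp, chr2:174878315-174880049 of 1735 bp and chr14:43644847-43646318 of 1472 bp. Of the peaks at 3100 or above, 104 of 198 in E14 replicate 1 and 81 of 140 in E14 replicate 2 overlapped a peak of 3T3 replicate 1, and 168 and 130 overlapped one of 3T3 replicate 2. These sites are thus the exception among the peaks at 3100 or above as regards 3T3 replicate 2.

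The 5 highest 3T3 regions without an E14 peak ranked lower in their own lists than the 5 E14 regions above. They come from 1158 regions against 24305, and the larger set favours higher extremes. Median percentiles of the whole classes were 37.4 and 44.9 in the 3T3 libraries, against 64.4 and 47.5 in the E14 libraries. The first 3T3 region was chr8:27126975-27127380, only 406 bp long, with scores of 601.0 and 723.8 and percentiles of 95.84 and 91.12 in the 3T3 libraries. The second, chr17:86016999-86018146, scored 501.8 and 720.9. The third, chr8:127715175-127716654, scored 404.7 and 769.5. The fourth, chr17:34986760-34988006, scored 351.1 and 805.0, and the fifth, chr4:88405845-88407424, scored 323.2 and 651.5. In each of the 5, 1 peak was present in each 3T3 library, and the lower percentile was between 86.97 and 91.12.

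In 12 regions both E14 percentiles exceeded 99 while both 3T3 percentiles were 25 or less, a set defined after the values were seen. The 3 highest in E14 were chrY:1108514-1110079, with 3100 and 3227.0 in E14 and 51.7 and 68.3 in 3T3, chr3:66473731-66475324, with 3100 and 3100 against 57.9 and 76.1, and chr17:35560935-35563324, with 3100 and 2782.8 against 55.0 and 73.7. Their 3T3 scores lay between 51.7 and 76.1, where 50 is the lowest score of the lists. The whole Y chromosome held only 2 and 3 peaks in the 3T3 lists, against 40 and 32 in E14. Of these 3T3 peaks the Y region held 1 and 2, so its low rank is not particular to this site.

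**Figure D4:**
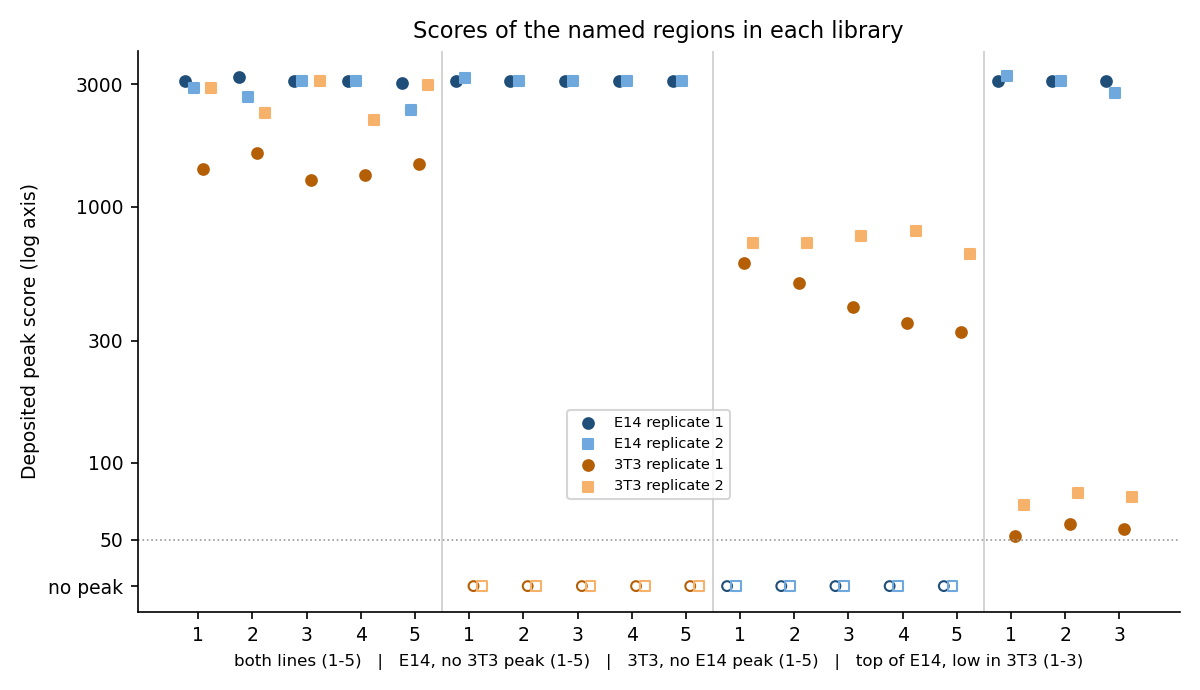
Deposited score (log axis) of the named regions in each library, in the order of the text. Filled symbols are the best peak of a library in the region, open symbols mark no peak, and the dotted line is the lowest score of the lists, 50. The last 3 regions are at 2782.8 or above in E14 and at 76.1 or below in 3T3.

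Peaks with a partner in the other line ranked higher and were wider than peaks without one in each of the 4 libraries. In E14 the median percentile was 71.7 with and 43.0 without a 3T3 peak in replicate 1, and 68.3 and 40.4 in replicate 2. In 3T3 it was 55.8 with and 25.7 without an E14 peak in replicate 1, and 56.4 and 27.4 in replicate 2. The mean difference was 28.3 points in E14 and 29.6 in 3T3. It fell to 6.56 in E14 when only the best-scoring 50% of each list was kept. Median widths were 602 against 372 bp and 936 against 711 bp in the E14 libraries, and 435 against 291 bp and 926 against 680 bp in the 3T3 libraries. Within a score decile the widths were close. The ratio of medians ran from 1.01 to 1.13 in E14 replicate 1 and from 1.02 to 1.21 in E14 replicate 2. In the lower 9 deciles of the 3T3 libraries it ran from 1.01 to 1.13 and from 0.97 to 1.06. In the highest 3T3 decile it was 1.3 and 1.32, over 10 and 6 peaks without a partner.

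Overlapping peaks of the 2 lines had midpoints about as far apart as those of replicates. Overlap itself limits the distance. Between these midpoints, the median distance was 80 and 104 bp for E14 replicate 1 with the 3T3 libraries, and 93 and 94 bp for E14 replicate 2. It was 69 bp between the E14 libraries and 115 bp between the 3T3 libraries. The distances between lines fell inside the range of those within lines. Midpoints lay within 100 bp in 48.9% to 57.9% of overlaps between lines, in 64.7% between the E14 libraries and in 45.1% between the 3T3 libraries.

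Many 3T3 peaks without an E14 partner lay near an E14 peak. The nearest one was at a median of 4.52 kb for 3T3 replicate 1 and 6.20 kb for 3T3 replicate 2, and 52.0% and 44.6% had one within 5 kb. For E14 peaks without a 3T3 partner the medians were 29.3 and 33.8 kb, and 14.7% and 12.7% had a 3T3 peak within 5 kb. The E14 lists are longer, which shortens the first distances. With 15462 peaks in each list the medians were 32.5 and 34.0 kb from 3T3 to E14 peaks, and 71.4 and 68.9 kb from E14 to 3T3 peaks. At equal length the share within 5 kb was 15.9% and 12.3% for 3T3 peaks and 8.02% and 8.09% for E14 peaks.

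The best 15462 peaks had near neighbours in both 3T3 libraries at a higher share than in both E14 libraries. Another peak of the same list lay within 10 kb of 47.5% and 31.6% of them in the 3T3 libraries and of 20.5% and 20.4% in the E14 libraries. The difference was 19.1 percentage points (exact permutation test over libraries, two-sided, p = 0.33, the smallest possible), with both 3T3 values above both E14 values. Without 3T3 replicate 1 it was 11.1 points. Of the peaks of that library, 33.2% had a neighbour within 1 kb, against 12.8% in 3T3 replicate 2 and 5.64% and 4.91% in E14. For 3T3 replicate 1 these 15462 peaks are the whole list, weak peaks included. In the whole lists the shares within 1 kb were 33.2% and 14.8% in 3T3, and 27.1% and 15.4% in E14. There they differed more by replicate number than by line. Joining peaks of a list closer than 1 kb, a step added after these values were seen, left 12579 joined peaks in 3T3 replicate 1. With that number in every list, 21.9% and 20.1% of the 3T3 peaks and 13.7% and 14.4% of the E14 peaks had a neighbour within 10 kb, a difference of 6.90 points. Of the regions of both lines, 20.6% held 2 or more peaks of 3T3 replicate 1 and 3.24% of 3T3 replicate 2.

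On the scale of 1 Mb, the share of peaks per bin was correlated between lines, though less than between replicates. Over 1471 bins with at least 30 peaks in the 4 libraries together, the Spearman correlation of a library's share of peaks per bin was 0.92 between the E14 libraries, 0.89 between the 3T3 libraries and 0.71 to 0.75 between lines, as a description. In 110 bins (7.48%) both 3T3 shares were over 1.5 times both E14 shares, and in 121 bins (8.23%) both were over 1.5 times below. Bins were thinly filled in 3T3, with a median per library of 10.5 peaks in the higher bins, 2.5 in the lower and 7 in the others. A 1.5-fold difference can thus rest on few peaks. The matching E14 medians were 16.25, 19.5 and 20.5. The E14 lists are longer, so a bin reaches 30 peaks mainly through E14. That limit favours bins lower in 3T3 and leaves out bins sparse in E14. With lists of 15462 peaks 577 bins were left, of which 129 were higher and 12 lower in 3T3. Without 3T3 replicate 2 the numbers were 199 and 193, and without E14 replicate 1 they were 100 and 37.

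The densest stretch of both lines was on chromosome 10. The bin from 79000001 to 80000000 held 281 and 185 peaks in E14 (0.455% and 0.426% of the lists) and 110 and 122 in 3T3 (0.711% and 0.696%), a log2 ratio of mean shares of 0.67. Next to it, the bin from 80000001 to 81000000 held 240 and 177 peaks in E14 and 91 and 109 in 3T3, and was not called. On chromosome 6, the bin from 114000001 to 115000000 held 145 and 85 peaks in E14 and 90 and 69 in 3T3 (log2 ratio 1.18). These 3 bins were chosen as the densest in 3T3, after the values were seen.

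By the size of the ratio, the highest bins lay on the X chromosome from 45000001 to 46000000, with 9 and 10 peaks in E14 and 9 and 14 in 3T3 (log2 ratio 1.88), and from 11000001 to 12000000, with 14 and 3 against 7 and 11 (1.87). The third was on chromosome 13 from 23000001 to 24000000, with 18 and 14 against 12 and 24 (1.8). The lowest bins had a single 3T3 peak, in replicate 2. On chromosome 14 from 5000001 to 6000000 the counts were 28 and 18 in E14 against 0 and 1 in 3T3 (log2 ratio -3.93). On chromosome 8 from 117000001 to 118000000 they were 22 and 16 against 0 and 1 (-3.67), and on the X chromosome from 146000001 to 147000000 they were 20 and 17 against 0 and 1 (-3.65).

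**Figure D5:**
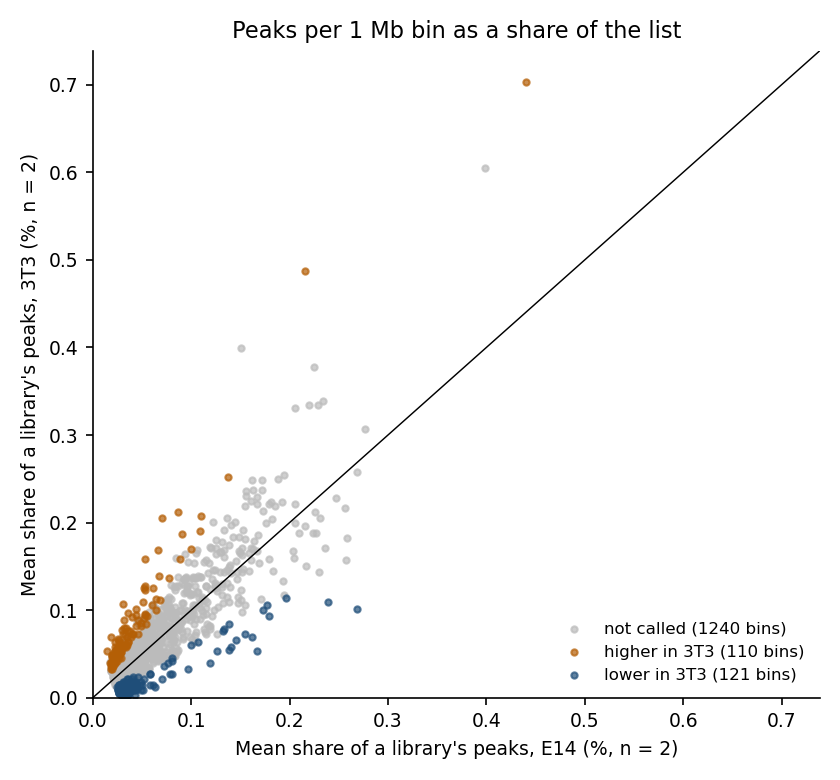
Mean share of a library's peaks in each 1 Mb bin, in percent, in E14 (horizontal) and 3T3 (vertical), 2 libraries per line; the diagonal marks equal shares. Orange marks the 110 bins in which both 3T3 shares were over 1.5 times both E14 shares, blue the 121 bins with the reverse, and the point at the upper right is the chromosome 10 bin at 0.441% in E14 and 0.703% in 3T3.

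Sites on the X chromosome were shared at lower rates than those on the autosomes in each of the 4 libraries. Of its 1191 E14 regions 7.39% overlapped a 3T3 region, against 18.2% to 28.7% on the 19 autosomes. Of its 158 3T3 regions 55.7% overlapped an E14 region, against 72.5% to 83.7%. The gap was smaller over single peaks, whether or not the other replicate held them. Of the X-linked E14 peaks 19.5% and 23.5% had a 3T3 peak, against 25.6% and 34.0% of the autosomal ones, and of the X-linked 3T3 peaks 78.5% and 75% had an E14 peak, against 83.8% and 83.1%. In 3T3 replicate 1 the intervals overlapped, at 72.6 to 83.5 over 219 X-linked peaks and 83.2 to 84.3 on the autosomes. X-linked peaks ranked above the autosomal ones in E14, with median percentiles of 67.1 and 63.5 against 49.5 and 49.5. In 3T3 they ranked below, with 32.2 and 31.8 against 50.4 and 50.7. Rank bears on these shares. In the score decile that holds the X-linked median, 76.4% and 76.3% of all 3T3 peaks had an E14 peak, close to the X-linked shares. In E14 that decile gave 27.8% and 39.4%, above the X-linked shares. The X chromosome also held a smaller part of the 3T3 lists (1.42% and 2.33%) than of the E14 lists (2.61% and 2.99%), a ratio of 0.67. Among the autosomes, chromosome 14 had the lowest ratio of 3T3 to E14 share, 0.80 (2.72% and 2.91% against 3.47% and 3.55%), and chromosome 6 the highest, 1.16 (5.82% and 5.36% against 4.70% and 4.91%). The labels do not give the sex or the chromosome numbers of the lines, and the inputs were not analysed. Copy number was thus not taken into account for any chromosome, the X and Y included.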

How the data were processed

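DPPA4 ChIP-seq libraries of 3T3 and E14 cells, 2 per line, were compared, and the input libraries were not analysed here. The deposited lists give chromosome, start, end, name and a score for each peak. Per the submitters' processing notes, tools included SAMtools 1.3, BWA 0.7.13-r1126, bcl2fastq 1.8 and CASAVA 1.8, with the mm9 build. The deposited peak names begin with MACS, while the caller's version, threshold and control are not stated there. Each library has a list of its own. What the authors' deposited score measures is not stated, so it was used only as a rank within a list. The P19 lists entered no comparison and gave only the series total.

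Overlap meant at least 1 bp. Counterparts of peaks were sought in either library of the other line. Equal-length lists took the best scores, with ties broken by width. Bins of 1 Mb needed 30 peaks over the 4 libraries. Depth is unknown, so a missing peak may be below detection. Groups and replicate numbers came from the sample titles. The rule for named regions took, in each of 3 classes, the 5 regions with the highest of their lowest percentile, and the 3 called bins with the highest and the 3 with the lowest ratio. Members and tests were chosen with earlier results of these data known. No test over peaks was made. Versions were pandas 2.3.3, NumPy 2.4.6, SciPy 1.17.1, Python 3.11.15 and Matplotlib 3.10.9. The code was tested on simulated lists. Alternatives were another overlap, the best 50% of lists, equal lengths, autosomes, 500 bp peaks, peaks of either library, other bin sizes and distances, pairing by replicate number as a block, and omission of single libraries. The gene and promoter tables at hand are GRCm38, so no gene or sequence was assigned.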

Additional observations from a re-analysis of the deposited data

How the results depend on the processing

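The share of 3T3 regions overlapping an E14 region (77.6%) was 66.2% with the best-scoring 50% of each list, 76.3% with the replicate block, 75.8% with peaks of 500 bp, 79.8% with peaks of either library and 36.7% with lists of equal length, and 70.2% to 84.7% leaving out 1 library. The reverse share (23.6%) was 21.1%, 24.8%, 22.6%, 24.9% and 30.9% in that order, 24.1% on autosomes alone, and 17.3% to 32.8% leaving out 1 library. The overlap of the 5000 best peaks (17%) moved with list length, to 3.85%, 5.28%, 8.92%, 29.1% and 40.1%, and ranged from 15.5% to 18.5% leaving out 1 library. The percentile difference between peaks with and without a partner was 6.56 (E14) and 27.8 (3T3) with the best 50%, 27.4 and 27.4 with the block, 28.7 (3T3) with 500 bp peaks, and 26.2 to 28.7 (E14) and 25.8 to 30.2 (3T3) leaving out 1 library. The width ratio was 1.19 in E14 (from 1.47) and 1.26 in 3T3 (from 1.43) with the best 50%. The mean rank correlation between lines (0.14) was 0.27 with the best 50% and 0.16 without regions at 3100 or above. It ranged from -0.0212 (without 3T3 replicate 1, turning its sign) to 0.19 leaving out 1 library. Bins higher in 3T3 (110) were 41 with 2 Mb bins, and 100 to 199 leaving out 1 library (199 without 3T3 replicate 2). Bins lower in 3T3 (121) were 40 with the best 50%, where 653 bins were tested, 12 with equal lengths, where 577 were, and 37 to 193 leaving out 1 library. In the same 2 cases 136 and 129 bins were higher. The cause of these shifts was not tested. The shares of the best 5% over percentile 90 in the other line (13.1%, 5.94%, 53.7% and 50.3%) were 9.95%, 4.39%, 18.2% and 17.2% with equal lengths. The fall of the 3T3 percentile at the top of the E14 lists kept its sign, from -39.0 to -20.7 leaving out 1 library and -27.7 on autosomes. Distances and spacing kept their direction under each alternative tried.

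With the replicate block, libraries of the same number were compared. The labels give these numbers no shared origin, and over 1471 bins the replicate differences of the lines correlated at 0.13. Peak width did go with the number: medians were 411 (E14) and 400 bp (3T3) in replicate 1, and 772 and 872 bp in replicate 2. So did the share of peaks with a neighbour within 1 kb in the whole lists. It was 27.1% and 33.2% in replicate 1, and 15.4% and 14.8% in replicate 2. A common origin of these differences was not tested. With the block 144 bins were higher and 154 lower in 3T3. Where many E14 peaks are tied at the ceiling, ranks cannot separate them, and peaks below a score of 50 are not in the lists.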
